A study of Arabidopsis thaliana with 6 samples.

Results

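The 10 Arabidopsis thaliana genes listed here encode the enzymes that make inositol, phosphorylate it step by step and carry it on to the inositol pyrophosphates. They were listed by locus identifier for their place in the pathway. The rule uses no measured value, but it was written with earlier results of these data known. The count table held 21693 genes. Of the 10 loci, 8 had a row in that table and all 8 passed the filter on low counts, among 10803 genes that did. The other 2, AT3G01310 and AT5G15070, encode the VIH kinases that make the most phosphorylated inositol pyrophosphate. They were not analysed here.

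Inositol pyrophosphates are inositol rings in which a phosphate group carries a further phosphate. The inositol phosphate synthases (MIPS) turn glucose phosphate into inositol phosphate, the IPK2, ITPK and IPK1 kinases add phosphates until inositol hexakisphosphate (phytate) is reached, and ITPK1, ITPK2 and the VIH enzymes add the pyrophosphate groups. In plants the products bind the SPX domain proteins, which hold back PHR1, a transcription factor that switches on phosphate starvation genes, when phosphate is plentiful. Arabidopsis mutants of IPK1 and ITPK1 are known for phosphate starvation responses on medium with ample phosphate.

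RNA-seq compared shoots of seedlings at 8 days of age, from the phod1 mutant and from the wild type (WT), with 3 samples of each. All grew on agar with 1/2-strength Murashige and Skoog nutrients, 1.0% sucrose and 1.1% agar, at 23 °C in days of 16 h light and 8 h dark, so both genotypes had the same nutrient-rich medium. SHORT-ROOT, PHOSPHATE1 and phosphate allocation stand in the study's title, but the gene affected in phod1, the origin of the allele and any pooling of seedlings are not in the labels, so the genotype of a library could not be checked. The labels do not state whether the samples were grown as separate cultures, and the p-values rest on a spread between samples that may be technical.

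Libraries held 33183463 to 33932995 units in phod1 and 34226295 to 54720319 units in WT, where a unit is the whole number the authors gave per gene and 1 sequenced fragment was taken to be worth 4 units. Levels are given as CPM, counts scaled to a common library size, on library sizes scaled by TMM. The TMM factors were 1.10 to 1.17 in phod1 and 0.857 to 0.907 in WT, so they differed by genotype without overlap. A floor of 3 fragments stood at 0.309 to 0.321 CPM in phod1 and 0.256 to 0.404 CPM in WT, and covers counting error only. The labelled tissue was checked with marker genes. A list of 8 root genes summed to 0.731 to 1.20 CPM in phod1 and 0.841 to 1.32 CPM in WT, with EXPA7 and RSL4 at 0 in all libraries, and a list of 8 shoot genes to 715 to 799 CPM in phod1 and 610 to 764 CPM in WT. A list of 4 vascular genes summed to 544 to 568 CPM in phod1 and 472 to 547 CPM in WT. One of them, the xylem protease gene XCP1, stood at 9.25, 9.66 and 11.2 CPM in phod1 1 to 3, against 23.3, 26.0 and 18.1 CPM in WT 1 to 3, with -1.16 as the log2 ratio (adjusted p = 0.00563, edgeR's quasi-likelihood test). The vascular sum was mostly SUC2, at 515 to 533 CPM in phod1 and 442 to 495 CPM in WT. APL stood at 1.28, 37.9 and 39.6 CPM in phod1, against 31.4, 0.363 and 31.7 CPM in WT. In the shoot list, the genotypes did not overlap in FAMA (33.1 to 36.7 CPM in phod1, 8.86 to 23.3 CPM in WT). Nor did they in GL1 (0.588 to 1.34 and 1.45 to 3.00 CPM). Neither passed the same test (adjusted p = 0.0588 and 0.0775). The part of such differences in the results was not tested, and in whole shoots fewer cells of a type and less RNA per cell cannot be told apart.

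The upstream sequences of MIPS1, ITPK1 and ITPK2 are shown first, because MIPS1 and ITPK2 rose in phod1 and because MIPS1 and ITPK1 were the only ones among the 10 genes with a G-box, CACGTG, in the 250 bases before their annotated start. The sequences are from the RefSeq assembly TAIR10.1, are written 5′ to 3′ on the strand of the gene, and end at the base before the start. Capitals mark the G-box, which is the same on both strands. G-boxes are bound by plant bHLH and bZIP transcription factors, many of them in light and stress responses.
MIPS1, minus strand, chr4:18472049-18472298: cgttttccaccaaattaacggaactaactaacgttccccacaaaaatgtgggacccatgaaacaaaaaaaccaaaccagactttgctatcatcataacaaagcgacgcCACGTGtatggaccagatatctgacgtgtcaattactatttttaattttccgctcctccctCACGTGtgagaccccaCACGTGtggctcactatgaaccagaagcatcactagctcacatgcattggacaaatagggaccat
ITPK1, plus strand, chr5:5509375-5509624: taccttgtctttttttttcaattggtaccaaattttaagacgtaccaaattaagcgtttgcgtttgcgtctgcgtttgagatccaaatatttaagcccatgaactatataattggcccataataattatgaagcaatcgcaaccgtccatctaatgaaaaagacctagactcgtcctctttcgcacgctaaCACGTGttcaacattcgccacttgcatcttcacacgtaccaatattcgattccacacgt
ITPK2, minus strand, chr4:16196643-16196892: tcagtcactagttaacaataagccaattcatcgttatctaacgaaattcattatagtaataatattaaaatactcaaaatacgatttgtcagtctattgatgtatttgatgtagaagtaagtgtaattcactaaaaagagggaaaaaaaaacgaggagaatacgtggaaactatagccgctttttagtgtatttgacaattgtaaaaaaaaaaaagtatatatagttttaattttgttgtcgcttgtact

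The MIPS1 window held 3 G-boxes, which began 142, 81 and 65 bases before the start, and the ITPK1 window held 1, 59 bases before it. Of 27443 protein-coding genes with such a window, 1780 (6.49%) had at least 1 G-box and 27 (0.0984%) had at least 3. The binding site of PHR1, P1BS (GNATATNC, the same pattern on both strands), was in 1498 of these windows (5.46%) and in none of the 10 listed genes. A match describes the letters of the window alone.

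Of the 8 measured genes, 3 rose in phod1 and none fell. MIPS1, at the entry of the pathway, was 1.52-fold higher, ITPK2 2.06-fold and IPK2b 1.32-fold. The other 5, IPK2a, IPK1, ITPK1, ITPK3 and ITPK4, did not pass an adjusted p threshold of 0.05 (edgeR's quasi-likelihood test, Benjamini-Hochberg over the whole table). Over all 10803 genes, 27.7% passed, made up of 14.6% higher and 13.0% lower in phod1. By edgeR at an unadjusted p under 0.05, 4 of the 8 passed and 1 of these was lower (IPK2a), against 39.3% of all genes that passed and 18.9% that were lower. By DESeq2 the 3 genes were called higher and IPK2a lower. DESeq2 called 31.2% of the genes it tested, made up of 15.9% higher and 15.3% lower. With 8 genes, these counts lie near the shares over all genes and are not a result about the pathway. The CPM of the genotypes did not overlap in 5 of the 8 genes, against 47.6% of all genes tested. The median log2 fold change was 0.069 over the 8 genes and 0.014 over all genes tested.

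**Figure D1:**
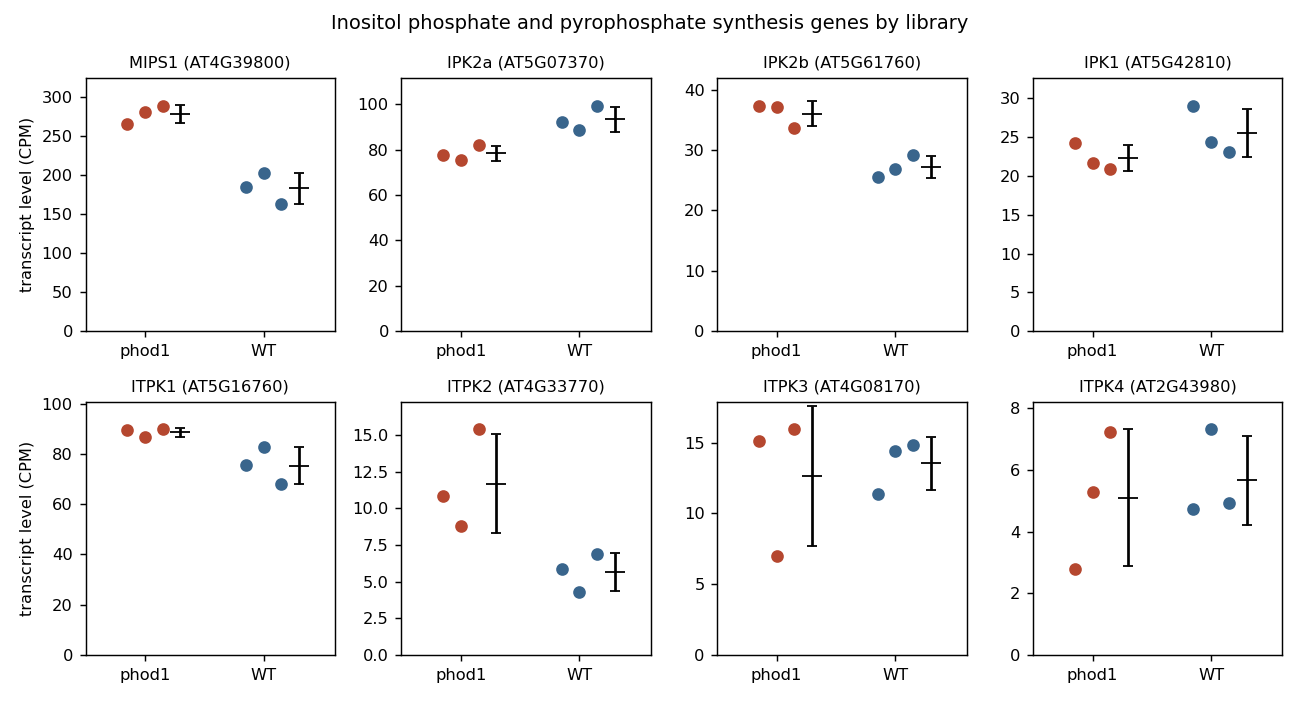
Transcript level in CPM of the 8 measured synthesis genes, each panel with its own axis from 0. Points are libraries of phod1 and of WT (3 each), and bars beside them give the mean and SD. The genotypes stand apart in MIPS1, IPK2a, IPK2b, ITPK1 and ITPK2, and overlap in IPK1, ITPK3 and ITPK4.

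MIPS1 (AT4G39800, chromosome 4, 18469255 to 18472048, 9 exons) encodes the isoform of inositol phosphate synthase on which most inositol in Arabidopsis leaves depends. Its level was 266, 281 and 289 CPM in phod1 1 to 3, against 184, 202 and 163 CPM in WT 1 to 3. Every phod1 library lay above every WT library. The means were 279 ± 11.7 CPM in phod1 and 183 ± 19.6 CPM in WT (SD, n = 3 each). On the log2 scale MIPS1 was higher by 0.61 (SE 0.0997, 95% interval 0.36 to 0.85, adjusted p = 0.00835). The call held without any one library, with log2 fold changes from 0.53 to 0.69 and adjusted p from 0.0123 to 0.0321. An exact two-sided permutation test of the CPM gave p = 0.1, the smallest that 3 against 3 samples allow, and the same held for each gene below whose genotypes did not overlap.

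Of 5 genes on a list of inositol supply besides MIPS1, 1 rose, none fell and 4 did not pass, where 14.6% of all genes tested rose and 13.0% fell. MIPS2 (AT2G22240), a second synthase gene, stood at 54.5, 56.2 and 59.2 CPM in phod1, against 42.3, 29.7 and 41.4 CPM in WT, and rose by 0.58 on the log2 scale (SE 0.157, adjusted p = 0.0409). WT 2 was the lowest library, and the call held only without it. Without WT 1, WT 3 or any one phod1 library the call was lost, with adjusted p up to 0.111. MIPS3 (AT5G10170), the third synthase gene, stood at 28.0, 22.1 and 23.5 CPM in phod1, against 30.4, 32.5 and 33.8 CPM in WT. Here every phod1 library lay below every WT library, and the log2 fold change of -0.39 (SE 0.121) did not pass (adjusted p = 0.0620). The remaining genes of this list, IMPL1, IMPL2 and VTC4, had log2 fold changes of -0.22, -0.09 and 0.64 with adjusted p of 0.409 to 0.766. Whether the product of each of them releases free inositol was not tested.

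Scaled by transcript length, the 3 synthase genes together reached 166, 170 and 176 CPM per kb in phod1, against 122, 126 and 114 CPM per kb in WT. MIPS1 made up 77.8% ± 1.04 of this sum in phod1 and 72.2% ± 3.93 in WT, and MIPS3 7.38% ± 1.10 and 13.7% ± 1.34 (SD, n = 3 each). The share of MIPS3 was lower in every phod1 library than in any WT library. The share of MIPS2 was 14.8% ± 0.147 in phod1 and 14.1% ± 3.12 in WT.

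**Figure D2:**
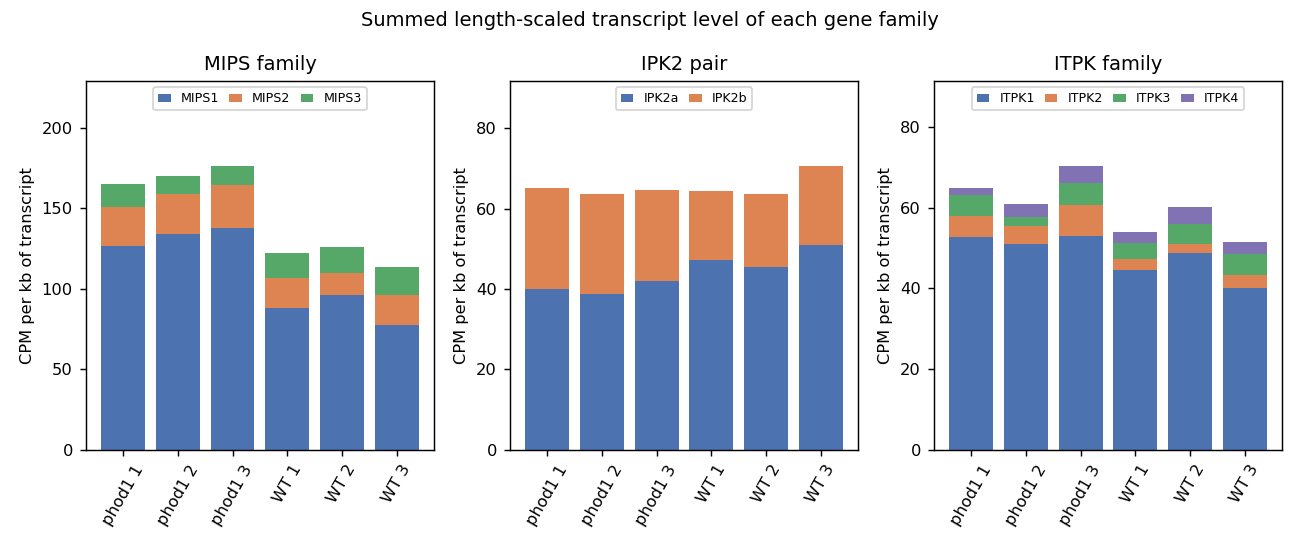
Summed transcript level per kb of transcript (CPM per kb) in each library for the MIPS, IPK2 and ITPK genes, phod1 libraries left of WT libraries and each colour a gene. The sums rest on library sizes scaled by TMM, whose factors differed by genotype. The MIPS sum is 166 to 176 in phod1 and 114 to 126 in WT, while the IPK2 sum is 63.5 to 65.0 in phod1 and 63.5 to 70.6 in WT.

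The IPK2 genes encode the inositol polyphosphate kinases that phosphorylate inositol trisphosphate further. IPK2b (AT5G61760, chromosome 5, 24813660 to 24815458, 2 exons) stood at 37.4, 37.1 and 33.6 CPM in phod1, against 25.5, 26.8 and 29.2 CPM in WT. The genotypes did not overlap, and the rise had a log2 fold change of 0.41 (SE 0.10, 95% interval 0.16 to 0.65, adjusted p = 0.0316). It was called without WT 3 (adjusted p = 0.0408) but not when WT 1, WT 2, phod1 1, phod1 2 or phod1 3 was left out, with adjusted p from 0.0507 to 0.0995 and log2 fold changes from 0.37 to 0.45. IPK2a (AT5G07370, chromosome 5, 2330338 to 2332338, 1 exon) stood at 77.8, 75.3 and 81.9 CPM in phod1, against 92.0, 88.7 and 99.4 CPM in WT. Here every phod1 library lay below every WT library after scaling by TMM. The log2 fold change of -0.25 (SE 0.0830, 95% interval -0.46 to -0.05, unadjusted p = 0.0236) did not pass after adjustment (adjusted p = 0.0741), but did with DESeq2 (adjusted p = 0.0208). The authors' deposited table lists it at -0.26 with an adjusted p of 0.0205, and also lists MIPS1, IPK2b and ITPK2 as higher. Its log2 fold changes for these 4 genes equal those of the DESeq2 fit of the same counts, so it is no separate result. The IPK2a model, as a whole gene span, overlaps AT5G07360 on the opposite strand by 125 bases, though their longest transcripts shared no 50-base window. No strand setting is given, and whether reads of that stretch were counted to the wrong gene was not tested.

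The summed level of the IPK2 pair per kb was 65.0, 63.5 and 64.6 CPM per kb in phod1, against 64.4, 63.5 and 70.6 CPM per kb in WT. The sums thus overlapped on library sizes scaled by TMM. The TMM factors differed by genotype, and whether the sums overlap without them was not tested. The makeup of the pair, a share within each library, does not depend on this scaling. It did not overlap: IPK2b took 38.6%, 39.2% and 35.0% of the pair in phod1, against 26.7%, 28.4% and 27.8% in WT. The difference in mean share was 9.98 percentage points (exact two-sided permutation p = 0.1, the smallest possible). It was 8.76 percentage points with coding length in place of transcript length.

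IPK1 (AT5G42810, chromosome 5, 17166702 to 17169459, 7 exons) encodes the kinase that adds the last phosphate of phytate. Its level was 24.2, 21.7 and 20.9 CPM in phod1, against 29.0, 24.4 and 23.1 CPM in WT. The genotypes overlapped, and the log2 fold change of -0.20 (SE 0.126) had a 95% interval of -0.51 to 0.11 (adjusted p = 0.311). The IPK1 model, as a whole gene span, overlaps the splicing factor gene U2AF35B on the opposite strand by 177 bases, though their longest transcripts shared no 50-base window. U2AF35B stood at 141, 81.8 and 3.29 CPM in phod1, against 174, 6.66 and 71.4 CPM in WT. Whether reads of the overlap were counted to the other model was not tested. Low values in a single library were also seen in other genes. In WT 1 to 3, NUDT21 stood at 121, 1.64 and 123 CPM, INT4 at 40.7, 3.33 and 34.7 CPM and the shoot marker YAB3 at 3.03, 26.2 and 25.0 CPM. The cause of such drops was not tested.

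The ITPK genes encode inositol phosphate kinases of which ITPK1 and ITPK2 can turn phytate into an inositol pyrophosphate. ITPK1 (AT5G16760, chromosome 5, 5509625 to 5511322, 1 exon) stood at 89.4, 86.6 and 89.8 CPM in phod1, against 75.4, 82.8 and 67.9 CPM in WT. The phod1 libraries lay above the WT libraries, closely together, but the log2 fold change of 0.23 (SE 0.0968, 95% interval -0.01 to 0.47) did not pass (adjusted p = 0.134). The neighbouring gene on the opposite strand, TOZ (AT5G16750), whose model lies 263 bases from that of ITPK1, rose in phod1. It stood at 32.1, 28.6 and 30.4 CPM in phod1, against 13.0, 12.2 and 11.9 CPM in WT (log2 1.29, SE 0.0961, adjusted p = 5.94e-04).

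ITPK2 (AT4G33770, chromosome 4, 16193373 to 16196642, 8 exons) had the highest fold change among the 8 genes and one of the lowest levels. It stood at 10.8, 8.81 and 15.4 CPM in phod1, against 5.89, 4.29 and 6.86 CPM in WT. The genotypes did not overlap, though phod1 3 lay well above its sister libraries. The log2 fold change was 1.04 (SE 0.279, 95% interval 0.35 to 1.73, adjusted p = 0.0406). These levels rest on 342 to 576 units in phod1 and 175 to 213 units in WT, which puts the counting error of a library at 8.33% to 10.8% in phod1 and 13.7% to 15.1% in WT. The call held without phod1 2 (adjusted p = 0.0425), but not when WT 1, WT 2, WT 3, phod1 1 or phod1 3 was left out, with adjusted p from 0.0554 to 0.0956 and log2 fold changes from 0.79 to 1.20.

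ITPK3 (AT4G08170, chromosome 4, 5163220 to 5167192, 8 exons) stood at 15.1, 6.98 and 16.0 CPM in phod1, against 11.4, 14.4 and 14.8 CPM in WT. One library, phod1 2, lay below the rest, and the genotypes overlapped. The log2 fold change of -0.10 (SE 0.331, 95% interval -0.91 to 0.72, adjusted p = 0.866) became 0.20 without phod1 2. ITPK4 (AT2G43980, chromosome 2, 18208253 to 18211644, 12 exons) stood at 2.80, 5.28 and 7.22 CPM in phod1, against 4.75, 7.32 and 4.93 CPM in WT. Its phod1 libraries spread over more than the WT range, on 107 to 270 units, and the log2 fold change of -0.15 (SE 0.382, 95% interval -1.10 to 0.79, adjusted p = 0.813) changed sign to 0.08 without WT 2 and to 0.14 without phod1 1. The model lies 34 bases from the RNA-binding protein gene LARP6b on the same strand, which held 336 to 563 CPM in phod1 and 198 to 541 CPM in WT. Whether reads passed from one model to the other was not tested.

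**Figure D3:**
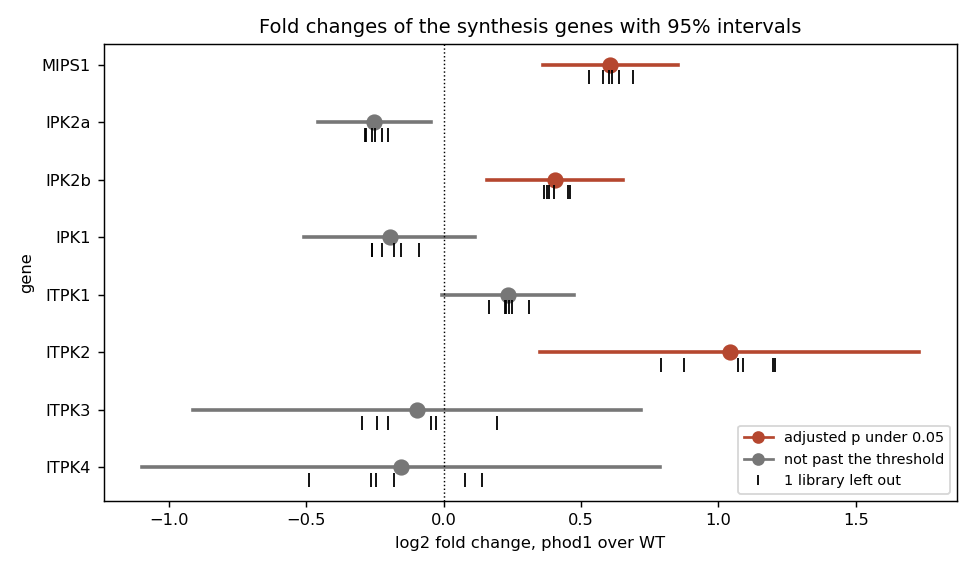
Log2 fold changes of phod1 over WT for the 8 measured genes (points) with 95% intervals from edgeR's quasi-likelihood test (lines), red where the adjusted p is under 0.05. Ticks under each line give the fold change with 1 library left out. MIPS1, IPK2b and ITPK2 lie above 0 with all their ticks, and the intervals of ITPK3 and ITPK4 reach from below -0.9 to above 0.7.

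Per kb of transcript, the 4 ITPK genes summed to 64.9, 60.9 and 70.3 CPM per kb in phod1, against 54.1, 60.2 and 51.4 CPM per kb in WT. ITPK1 held most of the sum, 80.0% ± 4.36 in phod1 and 80.3% ± 2.26 in WT (SD, n = 3 each). The share of ITPK2 was 8.29%, 7.20% and 10.9% in phod1, against 5.42%, 3.55% and 6.64% in WT, with no overlap. That of ITPK3 was 3.95% to 8.01% in phod1 and 7.26% to 9.92% in WT, and that of ITPK4 2.55% to 6.07% and 5.19% to 7.20%, with overlap in both.

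In order of level per kb, the 8 genes of phod1 shoots ran from MIPS1 (133 ± 5.59 CPM per kb) through ITPK1 (52.2 ± 1.04), IPK2a (40.2 ± 1.70), IPK2b (24.2 ± 1.4) and IPK1 (12.0 ± 0.919) to ITPK2 (5.81 ± 1.68), ITPK3 (4.36 ± 1.70) and ITPK4 (3.01 ± 1.31). In WT shoots the order was MIPS1 (87.3 ± 9.34 CPM per kb), IPK2a (47.9 ± 2.81), ITPK1 (44.4 ± 4.38), IPK2b (18.3 ± 1.24), IPK1 (13.8 ± 1.69), ITPK3 (4.66 ± 0.641), ITPK4 (3.35 ± 0.849) and ITPK2 (2.83 ± 0.646; SD, n = 3 each). Among the last 3, neighbours in the order overlapped in both genotypes. The ends did not: ITPK2 (4.38 to 7.66 CPM per kb) lay wholly above ITPK4 (1.65 to 4.27 CPM per kb) in phod1, and wholly below ITPK3 in WT (2.13 to 3.41 and 3.93 to 5.10 CPM per kb). ITPK1 and IPK2a overlapped in WT (40.0 to 48.7 and 45.5 to 51.0 CPM per kb) and not in phod1 (51.0 to 52.9 and 38.6 to 42.0 CPM per kb). No 50-base window of the longest transcript of any of the 8 genes occurred in the longest transcript of another gene.

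The 3 genes whose pattern over the 6 libraries was most like that of ITPK1 among 10802 others, by the root mean square difference of centred log2 CPM, were CHX19 (0.025), SDH6 (0.028) and XXT5 (0.031). SDH6 stood at 66.0, 63.3 and 66.6 CPM in phod1, against 58.5, 61.1 and 51.0 CPM in WT. None of the 3 passed the test between genotypes (adjusted p of 0.196 to 0.211). ITPK1 itself did not pass, and the 3 were picked for likeness to it over the same libraries. Their outcome in the test is therefore no separate result.

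Around the synthesis enzymes, 55 further genes of inositol and inositol phosphate metabolism were listed, of which 50 had a row and 45 were tested. The lists were chosen with earlier results of these data known, so their counts beside the shares over all genes are descriptive only. Of the 45 tested genes, 10 rose, 4 fell and 31 did not pass, against 14.6% higher and 13.0% lower of all genes tested. More rose and fewer fell than these shares would give, a difference that was not tested. Their median log2 fold change was -0.03, against 0.014 over all genes. Of 8 genes for inositol use and transport, 3 were below the filter on low counts and 5 were tested, of which 3 rose, none fell and 2 did not pass (14.6% of all genes rose). MIOX1 (AT1G14520), an inositol oxygenase gene that directs inositol to cell wall sugars, stood at 15.1, 12.5 and 14.9 CPM in phod1, against 1.78, 1.69 and 2.06 CPM in WT, 7.66-fold higher (log2 2.94, SE 0.157, adjusted p = 2.39e-04). MIOX2 (AT2G19800) stood at 3.68, 3.27 and 2.41 CPM in phod1, against 0.370, 0.213 and 0.225 CPM in WT, where every library was under its floor, so no fold is given (adjusted p = 0.00136). INT2 (AT1G30220), an inositol transporter gene of the plasma membrane, stood at 7.21, 7.26 and 7.59 CPM in phod1, against 1.82, 1.09 and 0.515 CPM in WT (log2 2.69, SE 0.435, adjusted p = 0.00792). Its level in WT 3 lay near the floor of that library, 0.387 CPM, so the size of this fold is uncertain. INT1 (AT2G43330), the transporter of the vacuole membrane, chosen after its values were seen, stood at 24.9, 9.53 and 30.0 CPM in phod1, against 43.2, 43.5 and 59.0 CPM in WT, and did not pass (adjusted p = 0.0984).

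Of 9 tested genes that make phosphatidylinositol or release inositol phosphates from its derivatives, 1 rose, 1 fell and 7 did not pass, near the 27.7% called over all genes. PLC5 (AT5G58690), a phospholipase C gene, stood at 9.74, 11.5 and 10.1 CPM in phod1, against 3.97, 2.67 and 2.00 CPM in WT (log2 1.86, SE 0.274, adjusted p = 0.00578). PIS2 (AT4G38570), a phosphatidylinositol synthase gene, fell to 3.00, 2.29 and 3.05 CPM in phod1, against 4.61, 5.95 and 5.99 CPM in WT (log2 -0.99, SE 0.196, adjusted p = 0.0154), and its call was lost without WT 2 (adjusted p = 0.0512).

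Nudix hydrolases include enzymes that break down inositol pyrophosphates. Of 7 tested Nudix genes, 2 rose, 1 fell and 4 did not pass, where 14.6% of all genes rose and 13.0% fell, and 5 PFA-DSP genes on the same list were not analysed here. NUDT17 (AT2G01670) stood at 85.3, 82.3 and 85.2 CPM in phod1, against 61.5, 65.8 and 66.3 CPM in WT (log2 0.38, SE 0.0751, adjusted p = 0.0147, lost without phod1 1 at 0.0543). NUDT12 (AT1G12880) rose by 0.89 on the log2 scale (SE 0.175, adjusted p = 0.0150, lost without phod1 2 at 0.0510). NUDT4 (AT1G18300) fell to 28.1, 26.4 and 27.6 CPM in phod1, against 44.2, 47.6 and 41.5 CPM in WT (log2 -0.70, SE 0.0943, adjusted p = 0.00426). Of 12 inositol phosphate phosphatase genes, none rose, 1 fell and 11 did not pass, fewer calls than the 27.7% over all genes would give, a difference that was not tested. It was PAP15 (AT3G07130), a purple acid phosphatase gene whose product acts as a phytase, with 4.55, 3.09 and 3.37 CPM in phod1, against 5.55, 6.34 and 6.70 CPM in WT (log2 -0.76, SE 0.197, adjusted p = 0.0371). Its call held only without phod1 1, and adjusted p reached 0.113 without one of WT 1, WT 2, WT 3, phod1 2 or phod1 3.

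Of 7 genes whose products carry or bind inositol phosphates, 3 rose, 1 fell and 3 did not pass, against 14.6% higher and 13.0% lower over all genes. Those that rose were the SPX sensor genes SPX1 (log2 3.03, adjusted p = 3.80e-04, 397 ± 5.61 CPM in phod1 and 48.7 ± 11.2 CPM in WT; SD, n = 3 each), SPX2 (log2 1.59, adjusted p = 1.92e-04, 77.4 ± 1.06 CPM in phod1 and 25.8 ± 0.402 CPM in WT) and SPX3. SPX3 stood at 10.5, 9.25 and 11.5 CPM in phod1, against 0.168, 0.213 and 0.483 CPM in WT, near or under the floor, so no fold is given (adjusted p = 6.81e-04). SPX4, on the same list, did not rise. It stood at 10.7, 9.76 and 7.99 CPM in phod1, against 16.8, 9.92 and 19.6 CPM in WT, and did not pass (log2 -0.70, SE 0.277, adjusted p = 0.119). The member that fell was TIR1 (AT3G62980), the auxin receptor that holds inositol hexakisphosphate as a cofactor, with 160, 152 and 155 CPM in phod1, against 238, 241 and 202 CPM in WT (log2 -0.54, SE 0.0919, adjusted p = 0.00914).

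**Figure D4:**
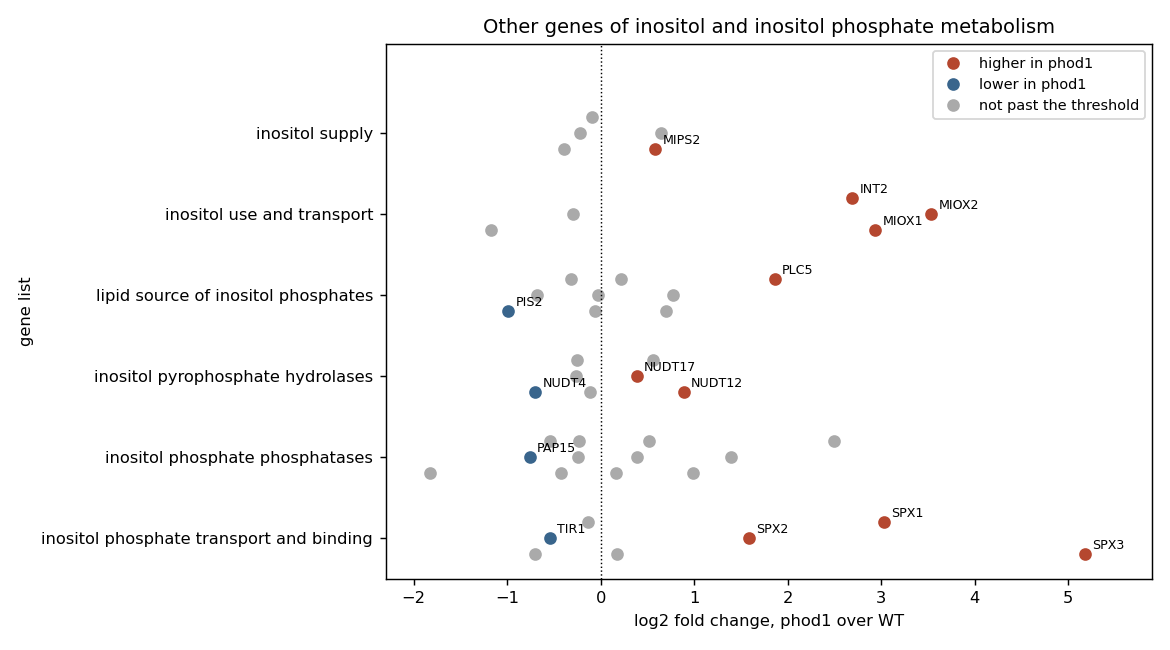
Log2 fold changes of phod1 over WT for the 45 tested genes of 6 lists of inositol and inositol phosphate metabolism, each point a gene. Named points passed the adjusted p threshold of 0.05, 10 higher in phod1 (red) and 4 lower (blue), with MIOX1 at 2.94, INT2 at 2.69, SPX1 at 3.03 and SPX2 at 1.59. The values of MIOX2 and SPX3 are fitted against WT levels near the floor, and for INT2 the level in WT 3 lay near it.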

How the data were processed

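RNA was taken from shoots with a plant column kit and DNase, per the labels' protocols. The authors deposited 1 table of estimated counts per gene, as whole numbers without normalization. TAIR10 is the build in the submitters' processing notes, which also list StringTie, STAR and CASAVA 1.4 without roles. How genes were counted, on which annotation and with what strand setting, is not given in the sources used. The value 4 was seen 1703 times and 3 only 562 times, so 1 fragment was taken as 4 units. The authors' deposited comparison table holds, per the file headers, log2 fold changes, a standard error and a test score, p-values, and a mean normalized signal.

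The plan assumed counts, and the same test was kept after rounding, which changed no value. Genes were filtered with filterByExpr (minimum count 10, minimum total 15), scaled by TMM, and genotypes were compared with edgeR 4.0.16 in R 4.3.3 (glmQLFit, glmQLFTest, 1 term for genotype, two-sided, Benjamini-Hochberg adjustment over 10803 genes, threshold 0.05). Intervals use the total degrees of freedom of that test, and SE is the log2 fold change divided by the root of F. DESeq2 1.42.0 was an alternative. The fit was tested on simulated data with planted differences. At a planted size of 2-fold, the test found 50 out of 100 genes. At 4-fold it found 79 out of 100. Its calls there came to 136, and 7 were false. The simulation planted 100 genes at each size, while 2988 genes passed in the data, so these recovery rates need not hold here. A gene that did not pass may still differ between genotypes. Among the listed genes that did not pass, the 95% interval on the log2 scale reached a 2-fold change in ITPK4 alone (-1.10 to 0.79). Gene models, lengths (longest transcript) and upstream windows came from RefSeq TAIR10.1, matched by locus, whose nuclear chromosomes are those of TAIR10. Nudix, SPX and other list genes were named as up to 3 called genes per list with the smallest p. MIPS3, the IMPL genes, VTC4, INT1, INT4, NUDT21, SPX4, TIR1 and neighbouring genes were chosen after their values were seen. Members and lists were chosen with earlier results of these data known. Counting errors cover fragments only. Likeness to the VIH genes and their share were not computed.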

Additional observations from a re-analysis of the deposited data

How the results depend on the processing

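Under size factors of DESeq2, the DESeq2 test, no filter and counts divided by 4, the 3 higher genes were called each time, and the count over all genes lay between 2714 and 3886, against 2988. DESeq2 called 1 of the 8 genes lower (IPK2a), against 0. Same-numbered libraries did not deviate together (correlations of -0.006, -0.051 and 0.007), so the numbers are not taken as pairs. With the replicate number as a block, 1500 genes passed, and 1 of the 8 genes was called higher (ITPK2, adjusted p = 0.0316), with MIPS1 at 0.0501 and IPK2b at 0.122. With 1 library left out, 1 to 2 of the 8 genes were called higher and 0 lower, 2128 to 2531 genes passed over all, and the IPK2b share differed by 9.17 to 11.3 percentage points. Log2 fold changes ranged from -0.30 to 0.20 for ITPK3 and from -0.49 to 0.14 for ITPK4, while the other 6 genes kept their direction. Library sizes without TMM or DESeq2 scaling were not tested. Before scaling, IPK2a held 2978, 2924 and 3063 units in phod1 1 to 3, against 2732, 4156 and 3085 in WT 1 to 3. WT 2 held 54720319 units in all, and every other library 33183463 to 34809021. IPK1 held 925, 843 and 782 units in phod1 1 to 3, against 863, 1143 and 718 in WT 1 to 3. The lower mean levels of IPK2a and IPK1 in phod1 thus rest on the scaling. Its TMM factors were 1.10 to 1.17 in phod1 and 0.857 to 0.907 in WT. Other small fold changes were not checked for this. The list counts of 10 and 4 were the same with the size factors of DESeq2, which put the median of all genes at 0.003. Counting error of a library was 8.33% to 15.1% for ITPK2, 7.69% to 12.1% for ITPK3 and 10.8% to 19.3% for ITPK4.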
